A study of Mus musculus with 12 samples.

Results

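Retinas of mice killed 8 d after induction of the Otx2 cKO in photoreceptors (P38) were compared with retinas of control mice at P30, the age of induction, by RNA-seq of 1 library per mouse. The comparison held 3 P38 and 3 P30 libraries, 6 of the 12 libraries of the series, chosen by the age and group given in their labels. The cKO mice carried the Crx-CreERT2 transgene and Otx2 flox/flox alleles on a 129/SV background and received a single intraperitoneal injection of tamoxifen at P30. The controls are labelled as control at P30, the day of induction, and their genotype and treatment are not given further in the labels. All mice were killed at 3 P.M., and the RNA came from the whole retina, with RNA of the RPE included per the study. In the cKO, Cre is driven by the Crx promoter and the series names photoreceptors as the cells of the deletion, so bipolar cells and RPE keep their alleles. The groups differ in age by 8 d and in the deletion at once, and in tamoxifen unless the controls were injected, and these cannot be told apart here. Mice are named by the numbers in their labels, P30 mice 1 to 3 and P38 mice 10 to 12.

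OTX2 is a homeodomain transcription factor that drives the specification of photoreceptors and remains expressed in photoreceptors, bipolar cells and the RPE of the adult eye. In photoreceptors it works beside its relative CRX at promoters of phototransduction genes. In the RPE it works with MITF at genes of melanin synthesis. The interphotoreceptor matrix and the enzymes of retinoid recycling link both tissues.

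The P30 libraries held 60145034, 47255929 and 35242774 counts on genes, and the P38 libraries 45797527, 42718433 and 29947009. Markers of retina were found in all 6 mice, among them Rbpms of ganglion cells, at 33.9 to 47.4 CPM (counts of a gene scaled to a common library size), and Gnat1 of rods, at 11918 to 19548 CPM. Otx2 itself (chr14:48657677-48673819, GRCm38) was at 293, 328 and 315 CPM in the P30 mice and at 377, 307 and 372 CPM in the P38 mice, with a log2 fold change of 0.17 ± 0.11 (SE) and an edgeR adjusted p of 0.847. These counts cover the whole gene, while the deletion removes 1 coding exon, so they do not check the deletion, and reads over single exons were not analysed here. The study compared reads of the deleted exon with those of a neighboring exon and reports a lower mean ratio at P38. In its values 1 P38 sample lay within the range of the P30 samples. Summed Y-linked counts and Xist read all 3 P30 mice and P38 mouse 12 as female and P38 mice 10 and 11 as male, so sex moved with the groups. Summed Y-linked levels, here without TMM scaling, were 234 and 261 CPM in the males and at most 0.301 CPM in the females. P30 mouse 1 stood apart from P30 mice 2 and 3 in genes of pigment and smooth muscle, and P30 mouse 2 was the highest in genes of skeletal muscle. In genes of the lens all 3 P30 mice differed, with P30 mouse 3 the highest and P30 mouse 2 the lowest. P30 mouse 1 had the lowest P30 value in 39.1% of all genes tested, in 47.3% of the 495 genes lower at P38 and in 56.0% of the 150 higher genes described next. For several genes and lists in which 1 of these mice stood apart, the value without it is given as well.

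Of 18628 genes tested, 0 (0%) were lower and 0 (0%) higher at P38 when a log2 difference of 0.5 or more and an adjusted p no higher than 0.05 were both required. The test was the quasi-likelihood test of edgeR, adjusted after Benjamini and Hochberg, and its smallest adjusted p was 0.506. With the p left unadjusted, 495 genes were lower at P38 (2.66% of those tested) and 150 were higher (0.805%). With no limit on the fold change, 1051 genes had an unadjusted p of at most 0.05. Among the 495 lower genes 307 were protein-coding, and among the 150 higher genes 89 were. The median log2 fold change over all genes tested was -0.01. All 3 P38 values lay below all 3 P30 values in 1482 genes (7.96%) and above them in 1534 genes (8.23%). The genes below are therefore described by their values in each mouse, and "lower" and "higher" name a direction and not a change that passed the adjusted test. DESeq2's Wald test on the same counts passed 34 lower genes (0.183%) and 11 higher genes (0.0591%). Of the 11 higher genes 3 are Y-linked, with the 2 male mice at P38, and the other 8 were Rec8, Odc1, 5930430L01Rik, Cyp2j9, Antxr2, A330074K22Rik, 1700030C10Rik and Zfp125. The lower genes included Tgm1, Gsta3, Myl9, Ociad2, Myh11, Tagln, Angptl2, Mlph and Gpnmb. Without P30 mouse 1, edgeR passed 13 lower genes at the adjusted threshold and 0 higher genes. Those 13 were Tagln, Myh11, Emilin2, Tgm1, C2, Gpnmb, Myl9, Smtn, Matn3, Hpse, Thbd, Angptl2 and Gsta3, with log2 fold changes of -4.67 for Myh11, -3.01 for Emilin2, -4.2 for Tgm1, -2.20 for Myl9, -5.55 for Matn3 and -1.99 for Thbd. Without P30 mouse 3 the only gene that passed was the predicted gene Gm13394, at 142, 122 and 0.505 CPM at P30 and at 0.728, 0.493 and 0.475 CPM at P38. Without P38 mouse 12 the only gene that passed was Wdfy1, which encodes an endosomal adaptor of Toll-like receptor signaling. It was at 85.5, 87.9 and 90.9 CPM at P30 and at 23.3, 27.5 and 94.2 CPM at P38, with P38 mouse 12 at the level of the controls. These 2 genes were singled out after their values were seen.

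**Figure D1:**
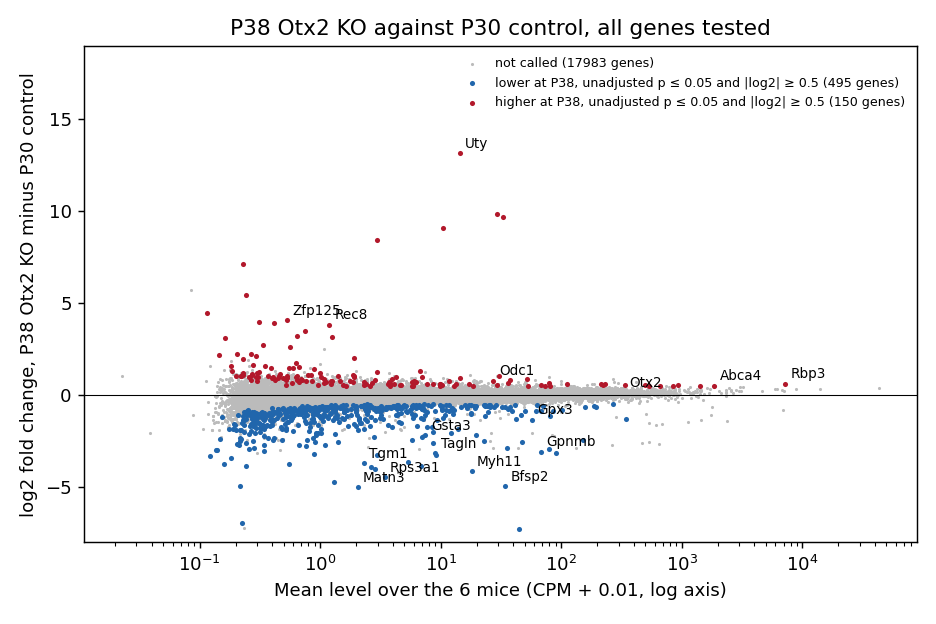
Each point is 1 of the 18628 genes tested, with its mean level over the 6 mice (CPM + 0.01, log axis) against its log2 fold change of P38 over P30. The 495 genes lower at P38 (blue) reach down to low levels and large fold changes, and the 150 higher genes (red) include the Y-linked gene Uty at the top and highly expressed photoreceptor genes such as Rbp3 and Abca4 at the right.

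Genes of the melanosome were the list with the lowest median in the fit of all mice. Without P30 mouse 2 the lens genes had a lower median (-2.17 against -1.57). Of 16 pigment genes tested, 9 were lower at P38 at the unadjusted p, beside 2.66% over all genes tested, and 0 were higher, 16 had a negative log2 fold change, and the median was -1.86. Gpnmb, a glycoprotein of melanosomes, was at 19.1, 184 and 164 CPM in the P30 mice and at 17.5, 18.6 and 7.06 CPM in the P38 mice. P30 mice 2 and 3 were far above all P38 mice, while P30 mouse 1 was only just above them. Its log2 fold change was -3.08 ± 0.69 (SE, adjusted p = 0.535), and -3.59 without P30 mouse 1 (adjusted p = 0.0153).

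In the enzymes and the fibrils of melanin synthesis P30 mice 2 and 3 were again the highest, while P30 mouse 1 lay close to or among the P38 mice. Tyrp1, which oxidises an intermediate of eumelanin, was at 19.7, 114 and 107 CPM at P30 and at 19.2, 16.3 and 6.04 CPM at P38. Tyr, the rate-limiting enzyme, was at 4.97, 27.4 and 26.9 CPM at P30 and at 6.89, 5.21 and 2.17 CPM at P38. For Tyr the groups overlapped, because P30 mouse 1 lay below P38 mice 10 and 11. Dct, or dopachrome tautomerase, was at 61.7, 390 and 310 CPM against 69.7, 57.4 and 15.6 CPM. Pmel, which forms the fibrils of the melanosome, was at 25.1, 258 and 202 CPM against 29.3, 21 and 4.75 CPM. Both overlapped through P30 mouse 1 as well. Mlana and Mlph, a melanosomal membrane protein and an adaptor of melanosome transport, did not overlap, with log2 fold changes of -3.26 ± 0.76 and -2.41 ± 0.57 (SE, adjusted p = 0.608 and 0.635). Without P30 mouse 1 their log2 fold changes were -3.74 and -2.83, and both had an adjusted p of 0.0769 in the edgeR fit. With all mice, the adjusted p of DESeq2 was 0.0354 for Mlana and 0.00849 for Mlph. P30 mouse 1 had the lowest P30 value in 15 of the 16 genes. The summed level of the list was 175 CPM in P30 mouse 1, 1110 and 945 CPM in P30 mice 2 and 3, and 211, 185 and 68.2 CPM at P38, so the P38 range held the value of P30 mouse 1. Mitf, the transcription factor of the pigment cell, was at 10.3 to 16 CPM at P30 and 9.70 to 12.2 CPM at P38 and was not called.

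Other genes of the RPE varied between the controls. Of 12 genes of the visual cycle and transport in the RPE, 1 was lower, beside 2.66% over all genes tested, and 0 were higher. Their median log2 fold change was 0.06, and it was -0.14 without P30 mouse 2 and 0.43 without P30 mouse 3. Rpe65, the isomerohydrolase of the visual cycle, was at 13.2, 5.59 and 21.5 CPM at P30 and at 25.3, 16 and 11.2 CPM at P38, and the groups overlapped. Rgr, an opsin of the RPE, was at 44.3, 30.0 and 85.9 CPM at P30 and at 92.8, 61.6 and 43.1 CPM at P38. The 1 lower gene was Mfrp, a membrane frizzled-related protein, at 3.97, 16.9 and 19.6 CPM against 6.87, 6.08 and 2.85 CPM, again with P30 mouse 1 inside the P38 range. In RNA of a whole tissue, fewer cells of a type and less RNA per cell cannot be told apart.

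The 250 bases before the annotated start are shown for 3 pigment genes and 2 photoreceptor genes of this comparison, since both groups hold known targets of OTX2. They come from RefSeq (GRCm38.p6) and are printed 5′ to 3′ on the strand of the gene, in lower case. Capitals mark TAATCC, a site read by OTX2 and CRX, which reads as GGATTA where it lies on the opposite strand. Capitals also mark CATGTG, the core of the box read by MITF, which reads as CACATG where it lies on the opposite strand. The windows are chr7:87493513-87493762 on the minus strand for Tyr, chr4:80833963-80834212 on the plus strand for Tyrp1, chr14:118052247-118052496 on the minus strand for Dct, chr14:33953753-33954002 on the plus strand for Rbp3 and chr3:122044210-122044459 on the plus strand for Abca4.
Tyr: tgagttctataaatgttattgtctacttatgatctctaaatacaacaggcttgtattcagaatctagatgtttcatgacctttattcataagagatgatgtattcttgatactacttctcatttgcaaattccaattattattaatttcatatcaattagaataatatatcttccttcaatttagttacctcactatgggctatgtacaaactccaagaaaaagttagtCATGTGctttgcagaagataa
Tyrp1: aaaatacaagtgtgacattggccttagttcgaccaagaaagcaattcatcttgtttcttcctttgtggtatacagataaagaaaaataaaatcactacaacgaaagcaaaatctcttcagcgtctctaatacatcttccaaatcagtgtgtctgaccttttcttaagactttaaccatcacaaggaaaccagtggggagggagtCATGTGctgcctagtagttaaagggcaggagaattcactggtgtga
Dct: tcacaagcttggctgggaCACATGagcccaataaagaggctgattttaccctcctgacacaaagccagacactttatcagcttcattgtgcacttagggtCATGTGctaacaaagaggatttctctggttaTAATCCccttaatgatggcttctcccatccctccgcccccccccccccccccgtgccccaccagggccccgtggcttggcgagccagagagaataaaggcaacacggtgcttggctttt
Rbp3: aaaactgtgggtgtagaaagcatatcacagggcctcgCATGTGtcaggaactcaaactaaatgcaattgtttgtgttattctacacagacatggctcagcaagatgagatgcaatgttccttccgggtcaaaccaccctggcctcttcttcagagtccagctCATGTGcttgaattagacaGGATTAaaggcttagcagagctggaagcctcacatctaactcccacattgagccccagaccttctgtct
Abca4: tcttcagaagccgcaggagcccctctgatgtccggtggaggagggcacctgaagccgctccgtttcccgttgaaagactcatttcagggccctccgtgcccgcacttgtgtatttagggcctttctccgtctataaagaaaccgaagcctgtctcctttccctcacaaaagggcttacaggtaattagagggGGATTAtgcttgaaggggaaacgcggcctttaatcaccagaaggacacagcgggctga

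In these windows CATGTG begins 21 bases before the start of Tyr and 46 bases before that of Tyrp1. Dct and Rbp3 hold both motifs. In Dct TAATCC lies 119 bases before the start, with CATGTG at 150 and CACATG at 232 bases. In Rbp3 GGATTA lies 69 bases before the start, with CATGTG at 88 and 213 bases. Abca4 holds GGATTA 58 bases before its start. Over the 12626 genes tested that have an entry, 6.63% held the first motif and 9.51% the second on either strand. Of the 495 lower genes 249 had an entry, of which 18 (7.23%) held TAATCC and 36 (14.5%) held CATGTG. Of the 150 higher genes 81 had an entry, of which 13 (16%) held TAATCC and 6 (7.41%) held CATGTG. Of the pigment genes 11 had an entry, of which 6 held CATGTG and 2 held TAATCC. Of the rod genes 13 had an entry, of which 3 held CATGTG and 7 held TAATCC. These matches are letters in a window and not sites of binding.

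Most contractile genes of smooth muscle were lower at P38, with the same split among the controls. Of 10 genes tested, 7 were lower, beside 2.66% over all genes tested, and 0 were higher, with a median log2 fold change of -1.16. Of the 10, 8 had a negative log2 fold change and 2 a positive one. In 3 (30%) all P38 values lay below all P30 values, beside 7.96% over all genes tested. The summed level of the list was 192, 423 and 413 CPM in P30 mice 1 to 3 and 275, 228 and 203 CPM at P38. By this sum P30 mouse 1 lay below all P38 mice. Tagln, or transgelin, an actin-binding protein of smooth muscle, was at 2.71, 25.1 and 20.7 CPM at P30 and at 1.72, 1.92 and 1.83 CPM at P38. All P38 values were below the lowest P30 value, that of P30 mouse 1. Its log2 fold change was -3.14 ± 0.62 (SE, adjusted p = 0.506), and -3.65 without P30 mouse 1 (adjusted p = 0.00211).

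Myh11, the myosin heavy chain of smooth muscle, was at 2.65, 46.7 and 53.2 CPM at P30 and at 1.55, 3.07 and 1.19 CPM at P38. P38 mouse 11 lay above P30 mouse 1, so the groups overlapped. Myl9, a myosin light chain, was at 10.0, 28.9 and 27.0 CPM against 7.57, 5.42 and 5.26 CPM, and Acta2, smooth muscle actin, was at 13.5, 77.9 and 95.2 CPM against 11.4, 7.15 and 6.45 CPM. Neither of these overlapped. P30 mouse 1 had the lowest P30 value in all 10 genes of the list. Of 14 genes of pericytes and endothelium, the other cells of the vessel wall, 0 were lower and 0 higher, beside 2.66% and 0.805% over all genes tested. Their median was -0.16, and -0.04 without P30 mouse 3.

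Genes of the extracellular matrix formed the next group of lower genes. Of 23 matrix glycoproteins and lecticans, 8 were lower, beside 2.66% over all genes tested, and 0 were higher (median log2 fold change -0.32), and 10 (43.5%) had all P38 values below all P30 values, beside 7.96% over all genes tested. Matn3, a matrilin of cartilage, had 22, 383 and 128 counts at P30 and 10, 4 and 0 counts at P38. Emilin2, an elastin-associated glycoprotein, was at 0.536, 3.19 and 3.45 CPM at P30 and at 0.364, 0.516 and 0.339 CPM at P38. In both, P30 mouse 1 was much nearer to the P38 mice than to its own group.

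Other matrix genes had closer values among the controls. Fbln1, or fibulin 1, was at 79.4, 82.0 and 79.3 CPM at P30 and at 40.8, 54.6 and 37.0 CPM at P38, with a log2 fold change of -0.86 (adjusted p = 0.847). Ltbp1, which binds latent TGF-beta, was at 20.9, 23.4 and 27.3 CPM against 14.0, 16.9 and 13.5 CPM. Efemp1, another fibulin of the retina, was at 71.6, 78.2 and 61.2 CPM against 50.3, 53.5 and 46.8 CPM and missed the limit on the fold change. The groups did not overlap in any of these 3 genes, and P30 mouse 1 stood with P30 mice 2 and 3. Vcan, which encodes versican, was at 17.9, 22.4 and 26.7 CPM against 16.9, 22.1 and 15.3 CPM and overlapped, and Ncan and Bcan had log2 fold changes of 0.00 and 0.11.

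Of 9 small leucine-rich proteoglycans 3 were lower, beside 2.66% over all genes tested, and 0 higher, and the median was -0.44 (-0.75 without P30 mouse 2). Bgn, which encodes biglycan, was at 5.54, 9.25 and 10.0 CPM at P30 and at 4.29, 5.02 and 2.44 CPM at P38, without overlap. Dcn, which encodes decorin, was at 1.99, 23.7 and 19 CPM against 1.89, 1.74 and 3.84 CPM, and overlapped through P30 mouse 1. The log2 fold change of Dcn was -2.59, and -3.11 without that mouse. Of 42 collagen genes 3 (7.14%) were lower, beside the same 2.66%, and 0 higher (median -0.24). The first of them was Col9a1, a chain of the vitreous and cartilage collagen type IX, at 86.6, 79.0 and 86.6 CPM against 48.6, 61.6 and 58.1 CPM, with a log2 fold change of -0.58 ± 0.13 (SE, adjusted p = 0.608) and all P38 mice below all P30 mice. Col9a2 was at 21.9, 20.7 and 20.8 CPM against 14.0, 19.6 and 10.9 CPM, again without overlap. Of 9 genes of the ciliary margin and iris 2 (22.2%) were lower, Cldn19 and Zic1. Cldn19, a tight junction claudin of the RPE and ciliary body, was at 7.74, 12.7 and 9.69 CPM against 3.93, 5.75 and 4.51 CPM.

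Genes of secreted signals and their modulators were lower in part. Of 24 tested, 12 were lower, beside 2.66% over all genes tested, and 0 were higher, 14 (58.3%) had all P38 values below all P30 values, beside 7.96%, and the median log2 fold change was -0.63. Angptl2, a secreted angiopoietin-like protein, was at 5.98, 15.4 and 18.0 CPM at P30 and at 4.29, 4.27 and 3.29 CPM at P38. Penk, the precursor of the enkephalins, was at 127, 112 and 91.8 CPM against 70.2, 62.4 and 47.9 CPM. Neither gene overlapped, and for Penk P30 mouse 1 was the highest control. Thbd, the thrombin receptor thrombomodulin, was at 2.49, 5.77 and 8.47 CPM against 1.67, 2.06 and 1.63 CPM. Edn3, or endothelin 3, was at 1.25, 4.50 and 8.02 CPM against 0.995, 0.680 and 1.15 CPM. In these 2 genes P30 mouse 1 lay just above the P38 mice, and without it the log2 fold change of Edn3 went from -2.28 to -2.73. Bmp2 and Bmp4, ligands of the TGF-beta family, both had all P38 values below all P30 values, with log2 fold changes of -1.01 and -0.66, of which the first was called. Igf2 was higher in all P38 mice, at 1.03, 1.15 and 1.28 CPM against 1.70, 1.83 and 1.77 CPM, with an adjusted p of 0.847.

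Enzymes against oxidative stress were lower in part. Of 23 genes of glutathione transfer and antioxidant defence 6 were lower, beside 2.66% over all genes tested, and 0 were higher. The median of the list was -0.08, and -0.18 without P30 mouse 2. Over all alternatives run it lay between -0.45 and -0.04. Gsta3, a glutathione S-transferase, was at 5.46, 20.8 and 10.5 CPM at P30 and at 3.01, 2.91 and 2.24 CPM at P38, with a log2 fold change of -2.16 ± 0.44 (SE, adjusted p = 0.506). Gpx3, the secreted glutathione peroxidase, was at 61.4, 94.1 and 90.5 CPM against 36, 33.8 and 27.5 CPM. Sod3, the extracellular superoxide dismutase, was at 13.3, 13.5 and 12.4 CPM against 7.57, 8.26 and 6.86 CPM. All P38 mice were below all P30 mice in these 3 genes, and the controls of Sod3 lay close together. The intracellular enzymes Sod1, Cat and Gpx4 had log2 fold changes of -0.07, -0.03 and 0.12 and were not called. Ucp2, a carrier of the inner mitochondrial membrane, was at 18.5, 41.4 and 35.0 CPM against 17.6, 13.9 and 12.4 CPM. Hmox1, or heme oxygenase 1, was at 5.06, 4.72 and 108 CPM against 9.12, 4.39 and 6.96 CPM. Its log2 fold change was -2.52, and it turned to 0.48 without P30 mouse 3, the single high control.

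The leading lower genes outside the lists above had mixed roles, and Tgm1 among them belongs to the corneal list given below. Tgm1, the transglutaminase of the epidermis, had 50, 311 and 192 counts at P30 and 16, 14 and 7 counts at P38, or 0.789, 6.28 and 5.71 CPM against 0.388, 0.328 and 0.238 CPM. Ociad2 was at 18.6, 25 and 27.3 CPM against 14.8, 11.2 and 9.91 CPM, with a log2 fold change of -0.98 ± 0.19 (SE, adjusted p = 0.506). Papss2, which makes the sulfate donor for proteoglycans, was at 11.3, 19.6 and 13.8 CPM against 8.10, 8.61 and 8.42 CPM. Fam20a, a pseudokinase of the secretory pathway, was at 1.86, 2.00 and 1.57 CPM against 0.631, 0.657 and 0.883 CPM, and Pld5 at 6.62, 11.8 and 12.2 CPM against 4.73, 4.48 and 3.22 CPM. In each of these 5 genes all P38 values were below all P30 values, which the choice of the leading genes required. Mcmdc2, Slc43a1, Gm49712, the pseudogene H2-M6-ps and the small nucleolar RNA Snora34 were also among the 15 leading lower genes, at no more than 1.55 CPM in any mouse.

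**Figure D2:**
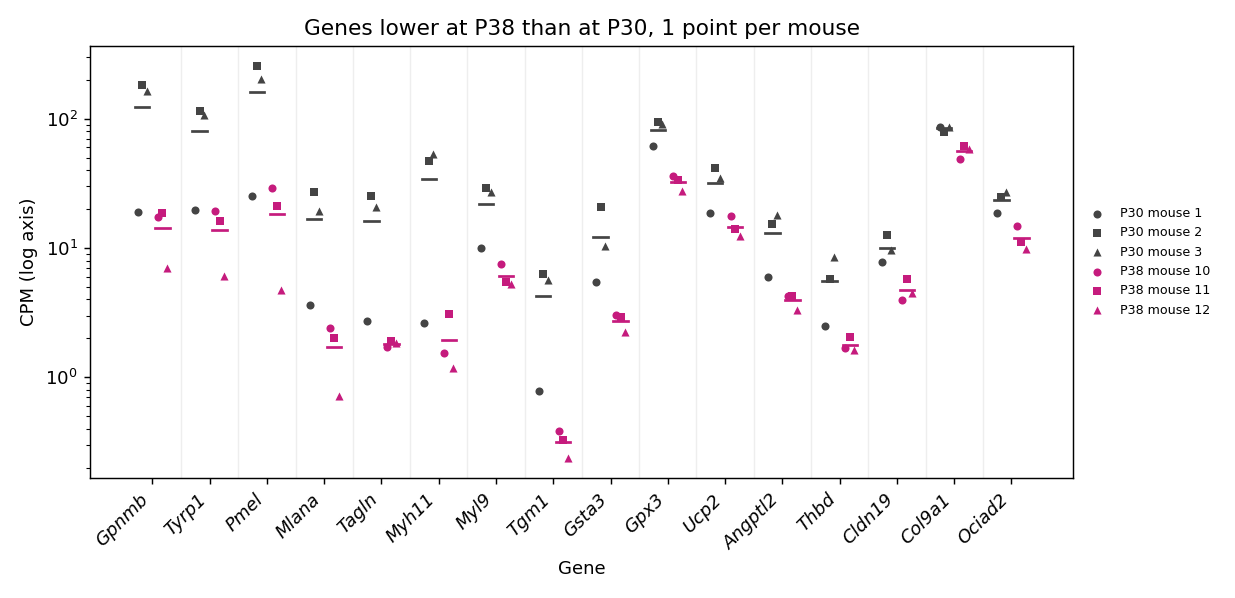
CPM (log axis) of 16 genes lower at P38, with 1 point per mouse, shapes for the mice and a bar for each group's mean. In the pigment and smooth muscle genes on the left P30 mouse 1 (dark circle) sits near the P38 mice and far under P30 mice 2 and 3, while for Col9a1 the 3 P30 mice lie together above the P38 mice.

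Markers of tissue next to the retina differed between mice, and among lens, blood, corneal and skeletal muscle genes only the blood genes had summed levels that did not overlap between the groups. Of 21 lens genes 1 was lower, beside 2.66% over all genes tested, 20 had a negative log2 fold change, and the median was -1.60, but 0.55 without P30 mouse 3. Their summed level was 13700, 808 and 58700 CPM in P30 mice 1 to 3 and 16400, 6600 and 7890 CPM at P38, so the P38 mice lay inside the P30 range. Bfsp2, a filament protein of the lens, was at 3.22, 1.01 and 195 CPM against 2.98, 1.69 and 1.66 CPM, and its log2 fold change was -4.96, but 0.00 without P30 mouse 3. All 5 genes of blood cells tested, 4 globins and Alas2 of heme synthesis, had all P38 values below all P30 values, beside 7.96% over all genes tested, and 2 were called lower, with a median of -1.22 and a summed level of 45.2, 87.1 and 61.7 CPM against 30.4, 29.9 and 21.6 CPM. The globin genes have near-identical copies and their counts are uncertain. Of 9 genes of the corneal and surface epithelium 1 was lower, and this was Tgm1 (median -0.65, and 0.62 without P30 mouse 1). Of 11 skeletal muscle genes 0 were called (median 0.55, and 3.35 without P30 mouse 2). The part of these tissues in the genes above was not tested.

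Genes of photoreceptors, the cells of the deletion, were level or somewhat higher at P38. Of 19 rod phototransduction genes 0 were lower and 0 higher by the call, beside 2.66% and 0.805% over all genes tested. Of the 19, 18 had a positive log2 fold change, and 8 (42.1%) had all P38 values above all P30 values. The share above was 8.23% over all genes tested, and 23.8% among protein-coding genes with a mean of at least 100 CPM. The median of the rod genes was 0.34, and 0.16 without P38 mouse 10. Gnat1, the alpha subunit of rod transducin, was at 12237, 11918 and 13194 CPM at P30 and at 19548, 12948 and 15129 CPM at P38. P38 mouse 10 was well above the other mice, and P38 mouse 11 lay within the P30 range.

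Cngb1, a subunit of the rod cyclic nucleotide-gated channel, was at 907, 1045 and 1015 CPM against 1555, 1221 and 1258 CPM. Gucy2e, a guanylate cyclase of the outer segment, was at 531, 653 and 680 CPM against 935, 820 and 854 CPM. These 2 genes had unadjusted p-values of 0.00493 and 0.00763 but missed the limit on the fold change. Of 13 genes of the outer segment and the interphotoreceptor matrix 2 were higher, beside 0.805% over all genes tested, and 0 lower. All 13 had a positive log2 fold change, and the median was 0.30. In 6 (46.2%) all P38 values lay above all P30 values, beside 8.23% over all genes tested. Among protein-coding genes with a mean of at least 100 CPM this share was 23.8%. Rbp3, the retinoid-binding protein of the interphotoreceptor matrix, was at 4676, 5785 and 6649 CPM at P30 and at 10419, 7096 and 8728 CPM at P38, with a log2 fold change of 0.62 ± 0.22 (SE, adjusted p = 0.847). Abca4, the retinoid flippase of the discs, was at 1369, 1550 and 1689 CPM against 2589, 1995 and 2005 CPM, with a log2 fold change of 0.52 ± 0.17 (SE, adjusted p = 0.847). Neither gene overlapped between the groups, and P30 mouse 1 was the lowest mouse in both. Without it the log2 fold changes were 0.49 and 0.44.

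No transcription factor of photoreceptors and no cone gene was called, beside 2.66% lower and 0.805% higher over all genes tested. Of 12 transcription factors 11 had a positive log2 fold change and 2 (16.7%) had all P38 values above all P30 values, beside 8.23% over all genes tested, with a median of 0.16. Crx and Nrl had log2 fold changes of 0.11 and 0.14, and Esrrb, a nuclear receptor of rods, was at 368, 381 and 414 CPM at P30 and at 656, 464 and 464 CPM at P38. Of 12 cone genes none had groups that did not overlap, and the median was 0.03, with -0.04 without P30 mouse 1 and 0.12 without P30 mouse 2. The short-wave opsin Opn1sw was at 544, 719 and 724 CPM against 834, 600 and 628 CPM.

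Genes of the axonal cytoskeleton and transport were higher at P38. Of 20 tested, 4 were higher (20%, beside 0.805% over all genes tested) and 0 lower, all 20 had a positive log2 fold change, 11 (55.0%) had all P38 values above all P30 values, beside 8.23%, and the median was 0.33. Tln2, or talin 2, was at 153, 181 and 173 CPM at P30 and at 265, 255 and 258 CPM at P38, with a log2 fold change of 0.62 ± 0.19 (SE, adjusted p = 0.847). Kif5a, a neuronal kinesin, was at 224, 238 and 361 CPM against 410, 411 and 409 CPM. Map1a and Map1b, microtubule-associated proteins, were at 151, 164 and 234 CPM against 283, 303 and 249 CPM and at 592, 749 and 904 CPM against 1127, 1193 and 981 CPM. P30 mouse 3 was the control nearest to the P38 mice in Kif5a, Map1a and Map1b. Of 34 cadherins and protocadherins 2 were higher, Pcdh11x and Cdh12, and of 45 voltage-gated channel genes 2 were higher and 1 lower, beside 0.805% and 2.66% over all genes tested. Kcnh5, a voltage-gated potassium channel, was at 6.73, 8.92 and 14.2 CPM against 15.8, 23 and 18.1 CPM, without overlap.

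Many of these genes have long transcripts, and direction moved with transcript length over all protein-coding genes tested. Among the 1460 genes with at least 10000 exonic bases, 20% had all P38 values above all P30 values and 2.05% had all below, with a median log2 fold change of 0.12. Among the 1924 genes with fewer than 2000 exonic bases the shares were 2.39% and 9.51%, and the median was -0.08. Tln2, Map1a, Map1b and Abca4 have 18357, 12166, 15846 and 12022 exonic bases. The direction also moved with the level. Among the 2168 genes with a mean of at least 100 CPM 23.8% were above and 1.94% below. The 83 cytosolic ribosomal protein genes, which are short, had a median of -0.18 (-0.37 to -0.07 over the alternatives run, with -0.07 without P30 mouse 3). Of these, 3 (3.61%) were lower, near the 2.66% over all genes tested, 0 were higher and 11 (13.3%) were below, beside 7.96%. One of the 3, Rps3a1, was high in a single control, at 0.520, 0.464 and 18.7 CPM against 0.315, 0.281 and 0.272 CPM. Its log2 fold change was -4.47, and -0.76 without P30 mouse 3. The part of length or level in the lists was not tested.

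**Figure D3:**
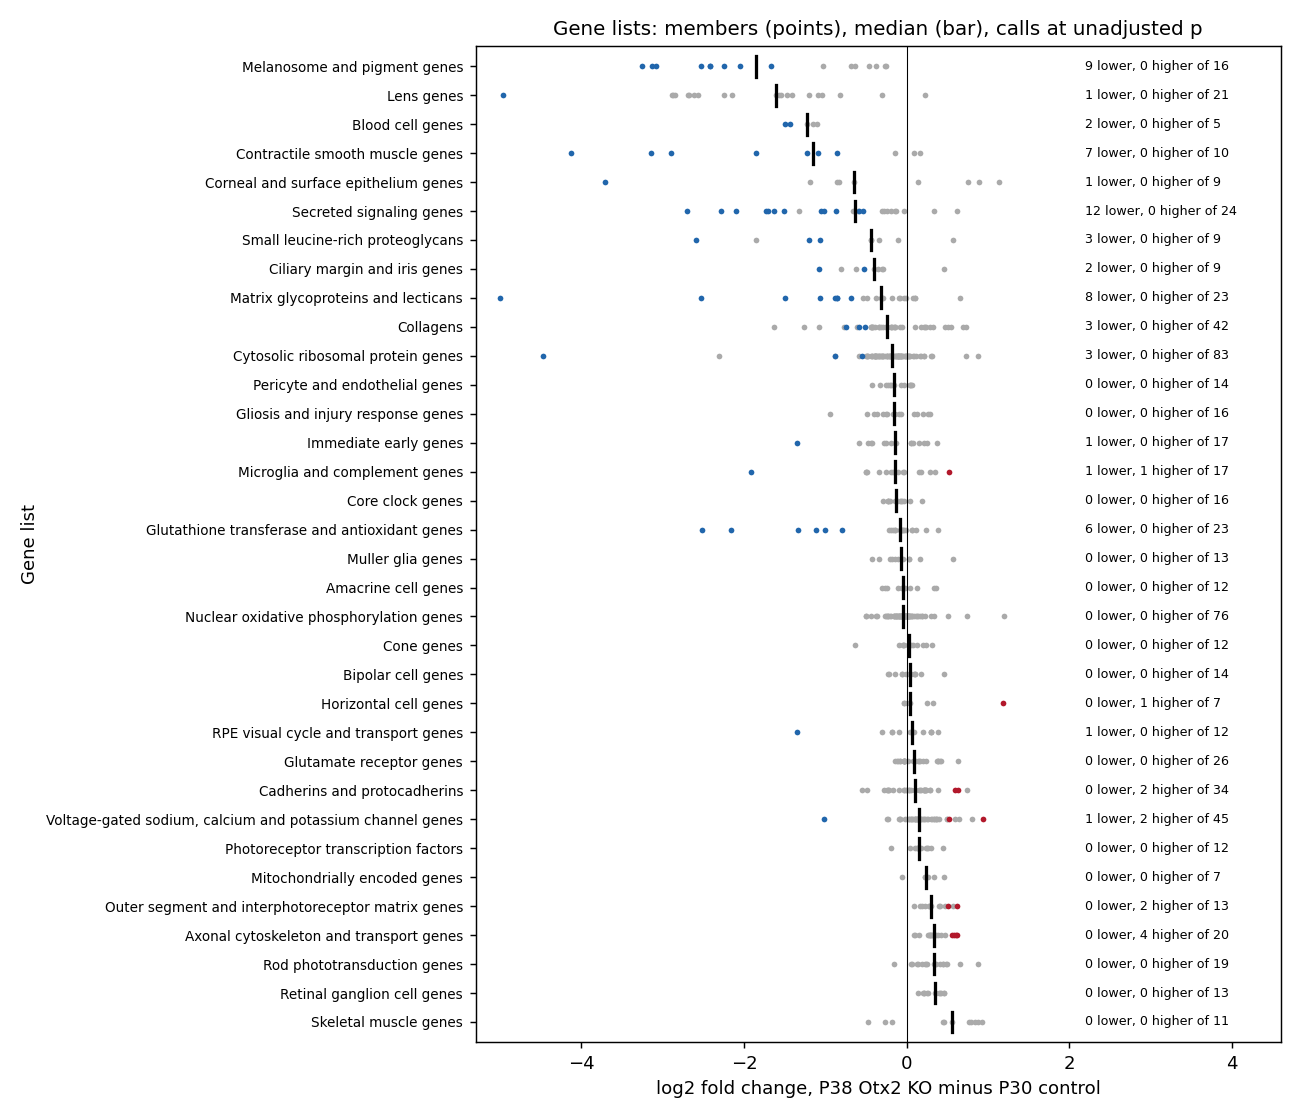
Log2 fold change of P38 over P30 for the members of 34 gene lists, 1 point per gene, with a black bar for the median of each list, blue for lower and red for higher calls at the unadjusted p. Pigment, smooth muscle and secreted signaling genes spread to the left, the rod, outer segment, axonal and ganglion cell lists sit right of 0, and the cone, bipolar, amacrine and Müller glia lists are centred near 0.

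Few genes of the inner retina and the glia were called. Over all genes tested 2.66% were lower and 0.805% higher. Of 14 bipolar and 12 amacrine genes 0 were called in either direction, with medians of 0.04 and -0.05. The bipolar median was -0.05 without P30 mouse 1. Of 7 horizontal cell genes 1 was higher, the transcription factor Onecut1, at 0.394, 0.707 and 0.743 CPM against 1.19, 1.59 and 1.36 CPM. Of 13 ganglion cell genes 0 were called, while all 13 had a positive log2 fold change (median 0.35, and 0.19 without P30 mouse 2) and 4 (30.8%) had all P38 values above all P30 values, beside 8.23% over all genes tested. Opn4, the melanopsin of light-sensing ganglion cells, was at 5.63, 5.37 and 6.15 CPM at P30 and at 8.15, 7.76 and 7.64 CPM at P38, without overlap. Of 13 Müller glia genes and 16 genes of gliosis and injury 0 were called, with medians of -0.07 (-0.16 without P30 mouse 2) and -0.16 (-0.05 without P30 mouse 3), and Gfap, the filament protein of reactive glia, was at 20.2, 20.1 and 45.1 CPM against 49.1, 23.4 and 29.4 CPM. Of 17 microglia and complement genes C2 was lower and Cx3cr1 higher. The chemokine receptor Cx3cr1 was at 4.46, 5.43 and 4.31 CPM against 7.5, 6.22 and 6.62 CPM, and complement C2 at 1.03, 4.42 and 4.28 CPM against 0.752, 0.962 and 0.849 CPM. Of 16 core clock genes and 26 glutamate receptor genes 0 were called, and of 17 immediate early genes 1 was lower, Nr4a3. Of the clock genes 14 had a negative log2 fold change, and 4 (25%) had all P38 values below all P30 values, beside 7.96%. Of 76 nuclear genes of oxidative phosphorylation and 7 mitochondrially encoded genes 0 were called, with medians of -0.04 (-0.17 without P38 mouse 10 and 0.07 without P38 mouse 11) and 0.24 (0.00 without P38 mouse 10).

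The leading higher genes were led by Odc1, ornithine decarboxylase, the rate-limiting enzyme of polyamine synthesis. Odc1 (chr12:17544794-17551505) was at 20.4, 20.5 and 19.4 CPM at P30 and at 42.4, 31.3 and 30.4 CPM at P38, with a log2 fold change of 0.79 ± 0.14 (SE, adjusted p = 0.506 in edgeR and 0.000287 in DESeq2). Its controls lay close together, and all P38 mice were above them. Rec8, a meiotic cohesin subunit, had 12, 9 and 2 counts at P30 and 111, 89 and 55 counts at P38. The noncoding RNAs 5930430L01Rik and A330074K22Rik were at 23.3, 28.3 and 29.2 CPM against 55.2, 43.7 and 45.8 CPM and at 16.1, 18.8 and 24.2 CPM against 41.9, 43.0 and 38.2 CPM. Antxr2, a receptor for matrix ligands, was at 23.9, 27.5 and 20.7 CPM against 32.4, 36.4 and 36.7 CPM. Ctif, a factor of cap-dependent translation, was at 74.6, 93.7 and 97.6 CPM against 139, 139 and 124 CPM. Faah, which degrades anandamide, was at 66.5, 61.9 and 55.9 CPM against 118, 105 and 70.9 CPM. The other leading higher genes were Odaph, Cyp2j9, Zfp125, 3110053B16Rik, 1700030C10Rik, Gm12462, Fggy and Lingo4, all at no more than 4.93 CPM in any mouse. As for the lower genes, the rule that chose these 15 required P38 values above all P30 values.

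**Figure D4:**
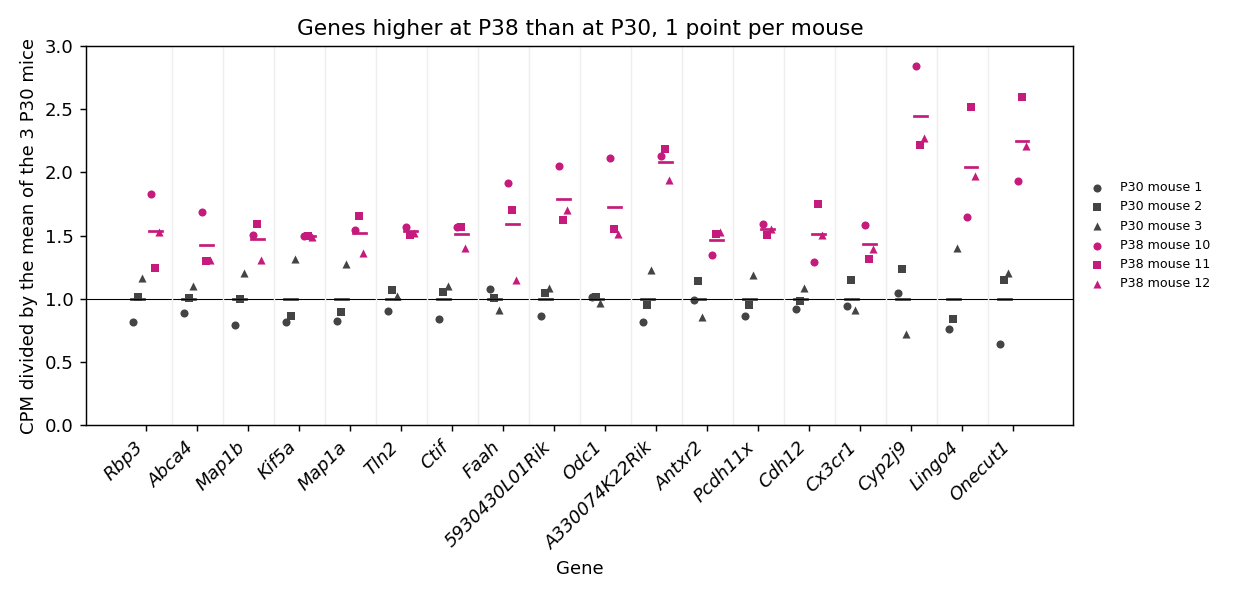
CPM of 18 genes higher at P38, divided by the mean of the 3 P30 mice, with 1 point per mouse and a bar for each group's mean. All P38 points lie above all P30 points of the same gene, and P38 mouse 10 is the highest in the photoreceptor genes Rbp3 and Abca4.

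Several of the leading higher genes lay close together on chromosome 12. Between positions 14000000 and 32000000, a stretch chosen after the values were seen, 12 of 89 genes tested were higher (13.5%) and 6 lower (6.74%), and over the whole chromosome 16 of 708 were higher (2.26%), beside 0.805% over all genes. The pseudogene Zfp125 had 3, 2 and 3 counts in the P30 mice and 34, 48 and 30 in the P38 mice, and the overlapping 3110053B16Rik had 2, 3 and 0 against 19, 21 and 23. 1700030C10Rik had 0 counts in each P30 mouse and 9, 22 and 17 counts at P38, at least 6.61-fold higher with a floor of 3 counts per P30 library. The cKO mice at P32 split for these genes. Zfp125 had 0 counts in P32 mouse 4 but 43 and 39 in P32 mice 5 and 6. At P34 its counts were 1, 1 and 0. Rec8 on chromosome 14 also differed between the P32 mice, at 0.6, 4.73 and 6.33 CPM at P32, at 2.69, 2.09 and 1.87 CPM at P38, but at 0.0552, 0.147 and 0.0339 CPM at P34. The level of these genes therefore did not follow the days after induction. Acp1 and 5730507C01Rik, also on chromosome 12, had P38 mouse 10 at the level of the controls, with 3.52, 9.31 and 16.1 CPM against 3.82, 3.96 and 3.95 CPM for Acp1. Why these genes differ between mice was not tested.

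**Figure D5:**
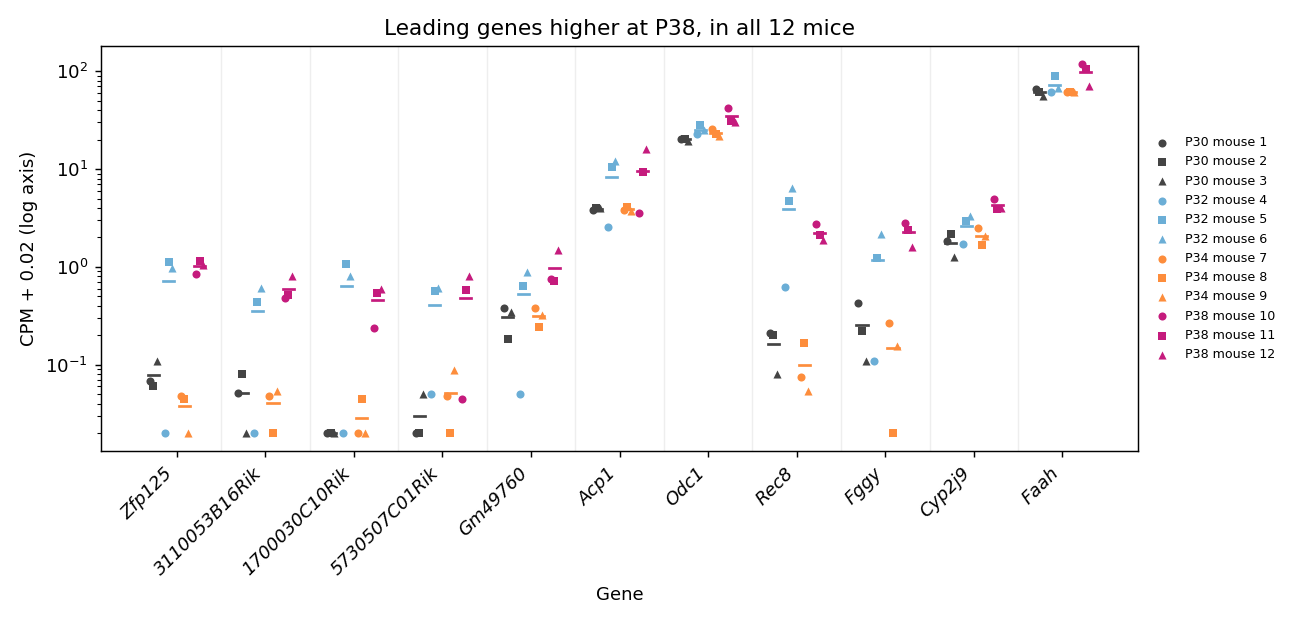
CPM + 0.02 (log axis) of 11 genes in all 12 mice, with 1 point per mouse and a bar for each group's mean. For Zfp125, 3110053B16Rik and 1700030C10Rik the 3 P38 mice and P32 mice 5 and 6 lie together at the top, and the P30 and P34 mice with P32 mouse 4 at the bottom. For Rec8 P32 mouse 4 lies between both sets.

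The P38 mice were also set against the cKO mice at P34, in a contrast that uses no control. At the adjusted threshold 37 genes (0.199%) were higher at P38 than at P34 in the edgeR fit and 0 were lower. They included Vcan, at a mean of 2.73 CPM at P34 and 18.1 CPM at P38 (log2 fold change 2.73, adjusted p = 0.000786), beside 22.3 CPM at P30. Fbln1 rose from 2.62 CPM to 44.1 CPM (4.08, adjusted p = 0.00114), beside 80.2 CPM at P30. Optc, which encodes the vitreous proteoglycan opticin, rose from a mean of 3.06 CPM to 53.0 CPM (4.11, adjusted p = 0.00146), beside 87.8 CPM at P30. Penk rose from 13.1 CPM to 60.2 CPM (2.2, adjusted p = 0.0206), beside 110 CPM at P30. Of the matrix glycoproteins 6 of 23 were in this group, of the ciliary margin genes 2 of 9 and of the pigment genes 0 of 16. Summed over the matrix glycoproteins, the P30 mice held 571, 627 and 676 CPM, those at P34 357, 328 and 352 CPM, and those at P38 518, 603 and 439 CPM, so P38 mouse 11 lay within the P30 range and the P34 mice below all others of these groups. For the pigment genes the summed level was 114, 104 and 79.0 CPM at P34 against 211, 185 and 68.2 CPM at P38, which overlapped. The median log2 fold change of P38 over P34 was 0.78 for the pigment genes and 0.85 for the matrix glycoproteins. Lens and corneal genes differed in the same direction, with medians of 3.46 and 1.22. The summed level of the lens genes was 357, 1060 and 821 CPM at P34 against 16400, 6600 and 7890 CPM at P38, without overlap. The part of lens or corneal tissue in the matrix genes was not tested.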

How the data were processed

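Total RNA of the whole retina of 1 eye per mouse was sequenced by the authors as stranded poly(A) libraries with single reads of 50 bp. The authors mapped the reads to mm10 with STAR 2.5.3a and counted them with HTSeq 0.6.1p1 (union mode) against the genes of Ensembl 93, and deposited these raw counts per gene without normalization. The strand option is not given in the sources used here, and reads with more than 1 position were not counted, so genes with near-identical copies and overlapping genes are uncertain. Lines that name no gene were left out. They held 7.53 to 12.9% of reads with no gene and 23.7 to 28.5% that were not unique in the 6 libraries.

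CPM and tests were computed from the deposited counts with edgeR 4.0.16 in R 4.3.3 (TMM scaling, edgeR's filter on low counts, quasi-likelihood test). All 12 libraries entered 1 fit with 1 mean per condition, and Benjamini-Hochberg adjustment of p ran over the 18628 genes that passed the filter, of 54146 counted. Calls needed a log2 fold change of at least 0.5 and an adjusted, or where stated unadjusted, p of at most 0.05. DESeq2 1.42.0 was an alternative, beside other filters, sex as a term and leaving out mice. GRCm38 positions and symbols came from GENCODE M21 and matched 54079 genes. The procedure was tested on simulated counts. The floor of 3 counts covers counting error only.

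Genes named in the text were Otx2, in each direction the 15 genes with the smallest p whose P38 values did not overlap the P30 values, up to 4 called members of each of 35 gene lists with the smallest p, and further list members that describe a list. The members and lists were chosen with earlier results of these data known. Each library is 1 mouse, so the spread is that between mice. Some genes that met these rules are not reported here.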

Additional observations from a re-analysis of the deposited data

Results flagged for a closer look

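Ltbp1, Cldn19 and Sod3, which were lower at P38 than at P30 at the unadjusted p, also differed between P38 and P34, by edgeR's test of that contrast. Ltbp1 was higher at P38 than at P34 by 1.49 on the log2 scale (adjusted p = 0.0123), Cldn19 by 1.91 (adjusted p = 0.0150) and Sod3 by 2.53 (adjusted p = 0.00725). Their mean levels at P30, P34 and P38 were 23.9, 5.29 and 14.8 CPM for Ltbp1, 10.0, 1.26 and 4.73 CPM for Cldn19 and 13.1, 1.31 and 7.56 CPM for Sod3. In all, 10 of the 37 genes higher at P38 than at P34 were lower at P38 than at P30 at the unadjusted p. The share of lower calls over all genes tested was 2.66%. Of the 37 genes, 36 had a negative log2 fold change of P38 over P30. All P38 values lay below all P30 values in 14 of the 37, beside 7.96% over all genes tested. Ltbp1, Cldn19 and Sod3 are those of the 10 that the rule for named genes chose.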

How the results depend on the processing

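At the adjusted threshold the counts of 0 lower and 0 higher genes became 15 and 3 with no filter on low counts and 34 and 11 with DESeq2. Leaving out 1 mouse at a time gave 0 to 13 lower genes, with 13 without P30 mouse 1 and 1 each without P30 mouse 3 (Gm13394) and without P38 mouse 12 (Wdfy1). A fit of only the P30 and P38 libraries without P30 mouse 1, chosen after seeing the data, gave 12 lower genes. At the unadjusted p, the 495 lower and 150 higher genes became 803 and 303 with no filter, 312 and 87 with a filter of at least 1 CPM in 3 libraries, and 704 and 413 with sex as a term, which lowered the share of lower calls from 76.7% to 63.0%. Of the 495 lower genes 328 were also among the 704. Leaving out 1 mouse at a time gave 356 to 562 lower and 96 to 312 higher genes, with 96 higher without P30 mouse 1 or without P30 mouse 2, and 312 without P30 mouse 3, where 60.4% of calls were lower. The cause of these shifts was not tested. Of the 81 genes chosen by the rule for named genes 0 changed sign under the alternatives run. Of the 35 list medians 9 changed sign under at least 1 alternative, among them those of the corneal genes (0.62 without P30 mouse 1), the lens genes (0.55 without P30 mouse 3) and the RPE genes (-0.14 without P30 mouse 2). Leaving out 1 P38 mouse also moved medians by over 1.5 times. That of the small leucine-rich proteoglycans (-0.44) became -0.89 without P38 mouse 10 and -0.27 without P38 mouse 12, that of the collagens (-0.24) became -0.11 without P38 mouse 10, and that of the corneal genes (-0.65) became -0.33 without P38 mouse 11 and -0.37 without P38 mouse 12. Over all alternatives run, the median lay between -1.15 and -0.53 for the secreted signaling genes. It lay between -0.56 and -0.21 for the matrix glycoproteins and between -0.67 and -0.36 for the ciliary margin genes. Hmox1, outside the rule for named genes, turned to 0.48 without P30 mouse 3. Depth limits genes at a few counts, where 3 counts are 0.0499 to 0.1 CPM before TMM scaling. No paired analysis was possible because the P30 and P38 mice share no replicate numbers.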
